A study of Mus musculus with 8 samples.

Results

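The genes described here are the mouse DDX and DHX RNA helicases together with Eif4a1 and Eif4a2, the paralogues that encode the translation factor eIF4A. Members were all genes whose symbol begins with Ddx or Dhx followed by a digit, plus Eif4a1 and Eif4a2, without Ddx3y and without symbols marked as pseudogenes or related sequences. This gave 55 members among 37310 genes in the count tables: 36 Ddx genes, 16 protein-coding Dhx genes, Eif4a1, Eif4a2 and Dhx58os, an antisense non-coding RNA that matches the symbol rule. The study, whose title names an RNAi screen of helicases, sequenced polyadenylated RNA from mouse embryonic stem cells in 8 libraries. J1 cells (strain 129S4/SvJae) made up 3 groups of 2 libraries: eIF4A3 knockdown with Ccnb1 overexpression (called labelled Ccnb1, or Ccnb1-labelled, here), eIF4A3 knockdown with the control for overexpression (labelled knockdown, or knockdown-labelled), and the controls for both knockdown and overexpression (control). CCE cells (strain 129/Sv) made up 2 libraries of eIF4A3 knockdown, and a control of these cells was not analysed here. All cells were grown without feeders in serum and leukaemia inhibitory factor, transfected, infected with lentivirus, held in puromycin (1 µg/mL) over 2.5 days and harvested at 4.5 days. The control libraries thus share the transfection, virus and selection with the others. eIF4A3, itself an RNA helicase, is deposited on spliced mRNA within the exon junction complex, and cyclin B1 is the product of Ccnb1.

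DDX and DHX proteins use ATP to unwind RNA or to remodel complexes of RNA and protein. DDX members, named after the DEAD motif, mostly open short duplexes and clamp RNA, whereas DHX members, of the DEAH type, mostly move along the strand. Between them they serve nearly every step in the life of an RNA: transcription, splicing, export, ribosome assembly, translation and decay. eIF4A1 and eIF4A2 unwind the 5′ ends of mRNAs so that the small ribosomal subunit can load.

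The libraries held 5871830 and 6620504 gene counts in labelled Ccnb1, 4398141 and 3596615 in labelled knockdown, 5740965 and 8340023 in control, and 23965806 and 25573379 in CCE. Levels below are CPM, counts per 1000000 gene counts. Replicate libraries differed by 1.88 times what Poisson counting gives in labelled Ccnb1, by 22.0 times in labelled knockdown and by 3.41 times in control, and unaligned reads made up 40.8% and 45.2% in labelled knockdown against 15.7% to 15.9% elsewhere in J1. Wherever labelled knockdown is compared, an effect of the treatment and this property of its libraries cannot be told apart. Divided by that spread, the counts of the 53 members tested in labelled knockdown had a median of 36.0 molecule equivalents, and 7 members stood under 10. Eif4a3 itself stood at 47.3 and 53.5 CPM in Ccnb1-labelled libraries, 75.7 and 37.5 CPM in knockdown-labelled libraries, 73.5 and 83.7 CPM in control and, in CCE, 48.8 and 53.9 CPM. In replicate 1 of labelled knockdown it was thus at the control level, so the groups are named by their labels. Its difference did not pass the threshold in any comparison (edgeR adjusted p = 0.211 in labelled knockdown against control). Ccnb1 stood at 136 and 131 CPM in Ccnb1-labelled libraries, 101 and 126 CPM in knockdown-labelled libraries, and 135 and 129 CPM in control. It was not called in any comparison either. In labelled Ccnb1 its log2 fold change was 0.31 against labelled knockdown and -0.060 against control, so no increase over control was seen in these counts. Summed embryonic stem cell markers, all 7 of them detected in every library, stood at 6691 and 6691 CPM in Ccnb1-labelled libraries, 3394 and 3219 CPM in knockdown-labelled libraries, 7044 and 7013 CPM in control and, in CCE, 3628 and 3895 CPM. All 7 were lower in labelled knockdown than in control and higher in labelled Ccnb1 than in labelled knockdown by the edgeR test described below. Between labelled Ccnb1 and control 3 were higher and 2 lower, although the sums lay close. Log2 fold changes of the 7 ran from -1.22 to 0.971 there. The part of these markers in the helicase differences was not tested. Summed levels of 6 fibroblast markers were 20.8 and 20.4 CPM in Ccnb1-labelled libraries, 20.7 and 34.2 CPM in knockdown-labelled libraries and 15.2 and 8.63 CPM in control, and Postn, Dcn and Col3a1 were at 0 in every J1 library. Within that sum Col1a1 stood at 3.07 and 2.72 CPM in Ccnb1-labelled libraries, 14.3 and 17.2 CPM in knockdown-labelled libraries and 1.39 and 1.08 CPM in control. It was higher in labelled knockdown than in control (3.50, SE 0.61, edgeR adjusted p = 0.0121) and lower in labelled Ccnb1 than in labelled knockdown (-2.36, SE 0.58, edgeR adjusted p = 0.0249), and its part in the helicase differences was not tested. Summed markers of differentiated lineages were 32.9 and 27.6 CPM in Ccnb1-labelled libraries, 8.87 and 33.1 CPM in knockdown-labelled libraries and 12.7 and 15.3 CPM in control. In bulk RNA, fewer cells of a kind and less RNA per cell cannot be told apart.

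Several members have near-identical gene copies, and reads can be split between them or left uncounted. The sequences behind the 3 closest cases are shown first. Each pair is the stretch of 100 coding bases, 5′ to 3′, with the most differences between the gene and its copy, which lie in capitals. The bases are from the GENCODE M21 transcripts, a build other than the authors' mm9. Ddx5 and its copy Gm12183, both on chromosome 11, differed at 27 of 1848 aligned bases.
Ddx5: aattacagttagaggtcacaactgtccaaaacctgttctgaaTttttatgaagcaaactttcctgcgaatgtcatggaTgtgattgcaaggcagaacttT
Gm12183: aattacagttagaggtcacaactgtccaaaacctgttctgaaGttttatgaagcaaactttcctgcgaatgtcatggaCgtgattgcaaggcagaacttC
Ddx18, on chromosome 1, and its copy Gm16433, on chromosome 6, differed at 13 of 1984 aligned bases.
Ddx18: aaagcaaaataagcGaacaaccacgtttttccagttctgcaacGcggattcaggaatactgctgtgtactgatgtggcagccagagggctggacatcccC
Gm16433: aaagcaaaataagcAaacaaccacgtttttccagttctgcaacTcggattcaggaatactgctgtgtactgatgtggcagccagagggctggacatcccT
Eif4a1, on chromosome 11, and its copy Eif4a-ps4, on chromosome 1, differed at 1 of 1218 aligned bases.
Eif4a1: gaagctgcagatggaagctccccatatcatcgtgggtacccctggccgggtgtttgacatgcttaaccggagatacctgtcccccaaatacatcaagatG
Eif4a-ps4: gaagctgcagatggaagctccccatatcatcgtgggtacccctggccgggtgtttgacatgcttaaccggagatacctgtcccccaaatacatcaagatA
Of the copies' own stretches of 100 bases, 17.3% in Gm12183, 43.1% in Gm16433 and 91.1% in Eif4a-ps4 were letter for letter the same in the gene. A read of that length from such a stretch has no single origin, and may be left uncounted or counted for either. Reads of low alignment quality, which name no gene, made up 20.6% to 33.7% of the totals in J1. Eif4a-ps4 has no row in the count tables, so the split of Eif4a1 reads with it was not measured.

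Per length, the 2 eIF4A genes were the most abundant members in control. Eif4a1 averaged 251 CPM per kb of transcript in labelled Ccnb1, 501 in labelled knockdown and 496 in control, and Eif4a2 averaged 409, 266 and 309 in the same order. Ddx5, a coactivator and splicing helicase, followed in control at 214 CPM per kb, and Ddx39b, which encodes the export and splicing helicase UAP56, at 191. From there the coding members declined to 1.33 CPM per kb for Dhx58, 0.618 for Ddx25 and 0.141 for Ddx60, all in control. In labelled Ccnb1 Eif4a2 held the first place by these counts, and Eif4a1, some of whose reads may be left uncounted, the third behind Ddx5. Dhx15 stood 9th per length in labelled Ccnb1, 32nd in labelled knockdown and 22nd in control. All members together made up 0.921% and 0.933% of the gene counts in labelled Ccnb1, 0.832% and 0.856% in labelled knockdown and 0.840% and 0.852% in control, so their sum moved little while single members moved apart.

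**Figure D1:**
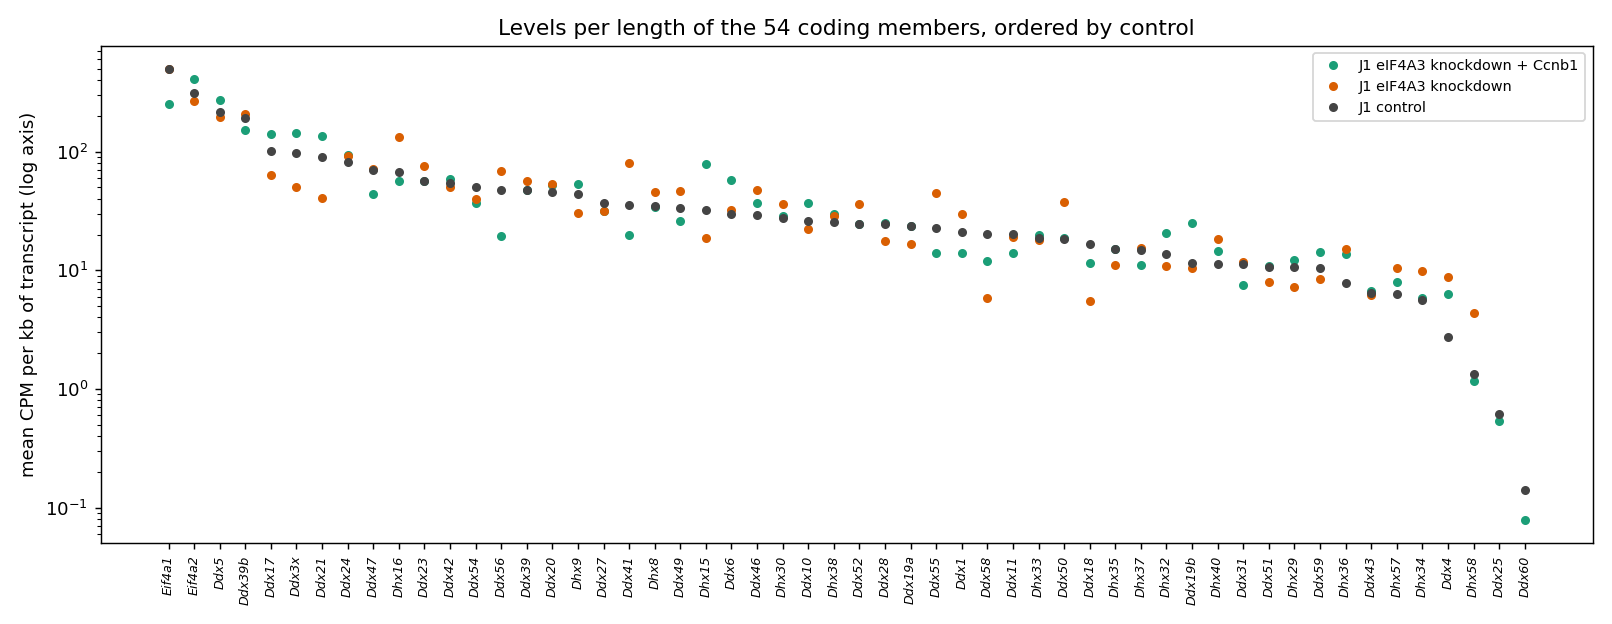
Mean CPM per kb of transcript (log axis) of the 54 coding members in labelled Ccnb1 (green), labelled knockdown (orange) and control (grey), n = 2 libraries each, ordered by control; means of 0 are not drawn. Eif4a1 leads in control at 496 CPM per kb, and the green point lies below the other two there but above them for Eif4a2.

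Tests are edgeR quasi-likelihood tests in 1 fit over the 6 J1 libraries, adjusted by Benjamini-Hochberg over all 14462 genes tested, and a member is called at an adjusted p under 0.05. Of the 55 members, 53 were tested. Ddx60, an antiviral helicase, and Dhx58os were left out by the filter on low counts, with at most 11 and 24 counts in a J1 library. Fold changes are log2 values after TMM scaling with an approximate standard error (SE). The fit pools the spread of each gene over all groups. The coefficient of variation between replicates, common to all genes, was 0.0426 in labelled Ccnb1, 0.396 in labelled knockdown and 0.0911 in control. SEs and p-values can thus understate the spread of labelled knockdown and overstate that of the others. The 3 comparisons share libraries, so their calls are not independent of each other. Where groups are said not to overlap, this describes called members and is no further test.

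Between labelled knockdown and control, 6 members were higher and 10 lower of 53 tested, or 30.2%. Over all genes 28.9% were called, 11.0% higher and 17.9% lower, so the members' share was near the background. The median log2 fold change was -0.12 over the members and -0.085 over all genes.

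Ddx21, Ddx3x, Ddx17 and Dhx15 were lower in labelled knockdown. Ddx21, a nucleolar helicase of rRNA transcription and processing, stood at 193 and 191 CPM in knockdown-labelled libraries, against 427 and 419 CPM in control. Both knockdown-labelled libraries lay far below both controls, with a log2 fold change of -1.30 (SE 0.06, edgeR adjusted p = 2.93e-04). Ddx3x, the X-linked helicase that helps translation of mRNAs with structured leaders, stood at 227 and 241 CPM in knockdown-labelled libraries, against 449 and 465 CPM in control (-1.12, SE 0.07, edgeR adjusted p = 5.33e-04). Ddx17, the paralogue of Ddx5 in transcription, splicing and microRNA processing, stood at 288 and 315 CPM in knockdown-labelled libraries, against 466 and 487 CPM in control (-0.82, SE 0.08, edgeR adjusted p = 0.00212). In each of these the groups did not overlap. Dhx15, which releases the spliceosome from excised introns, stood at 60.03 and 52.3 CPM in knockdown-labelled libraries, against 90.9 and 103 CPM in control (-0.95, SE 0.13, edgeR adjusted p = 0.00519). Dhx9, a nuclear helicase that resolves RNA-DNA hybrids and double-stranded RNA, stood at 136 and 141 CPM in knockdown-labelled libraries, against 205 and 192 CPM in control (-0.67, SE 0.09, edgeR adjusted p = 0.00444). Ddx58, which encodes the viral RNA sensor RIG-I, stood at 27.5 and 17.8 CPM in knockdown-labelled libraries, against 77.9 and 79.98 CPM in control (-1.95, SE 0.24, edgeR adjusted p = 0.00430), with 8.41 molecule equivalents behind the labelled knockdown values. The other members called lower were Eif4a2, Ddx19a, Ddx54 and Ddx25.

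Dhx16, Ddx41, Ddx46, Ddx50, Dhx36 and Ddx4 were higher in labelled knockdown. Dhx16, which activates the spliceosome before the first catalytic step, stood at 441 and 454 CPM in knockdown-labelled libraries, against 227 and 223 CPM in control (0.84, SE 0.07, edgeR adjusted p = 0.00107). Ddx41, a helicase of the catalytic spliceosome that also has a described part in DNA sensing, stood at 179 and 174 CPM in knockdown-labelled libraries, against 72.3 and 83.9 CPM in control (1.02, SE 0.13, edgeR adjusted p = 0.00452). Both libraries labelled knockdown were above both controls for each gene. Ddx46, the helicase that remodels the U2 snRNP at the branch site, stood at 286 and 250 CPM in knockdown-labelled libraries, against 165 and 170 CPM in control (0.52, SE 0.11, edgeR adjusted p = 0.0185). Dhx36, which unwinds G-quadruplexes, stood at 74.8 and 96.5 CPM in knockdown-labelled libraries, against 42.7 and 45.6 CPM in control (0.80, SE 0.19, edgeR adjusted p = 0.0316). Ddx50, the nucleolar paralogue of Ddx21, stood at 88.4 and 102 CPM in knockdown-labelled libraries, against 47.4 and 45.7 CPM in control (0.88, SE 0.17, edgeR adjusted p = 0.0172). Ddx21 was thus lower and its paralogue higher in the same libraries. Ddx4, which encodes the germ cell helicase VASA, was low throughout, at 29.8 and 18.6 CPM in knockdown-labelled libraries, against 8.54 and 6.71 CPM in control (1.51, SE 0.38, edgeR adjusted p = 0.0344).

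By role, 4 of 11 spliceosome members were called in labelled knockdown against control (3 higher, 1 lower), as were 3 of 16 ribosome biogenesis members (1 higher, 2 lower), 3 of 6 in translation and mRNA turnover (1 higher, 2 lower) and 2 of 4 in transcription and microRNA processing (both lower). In mRNA export 2 of 4 were lower (Ddx19a and Ddx25), of the antiviral sensors 1 of 2 was lower (Ddx58), and of the germline members 1 of 2 was higher (Ddx4). None of 8 mitochondrial, DNA and other members was called by edgeR, while 3 had an unadjusted p under 0.05 and DESeq2 called 2 (Dhx34 and Dhx57). Over all genes 28.9% were called. Eif4a1 stood at 836 and 943 CPM in knockdown-labelled libraries, against 888 and 870 CPM in control, with the groups overlapping (-0.14, SE 0.08, edgeR adjusted p = 0.234). Eif4a2 stood at 614 and 562 CPM in knockdown-labelled libraries, against 680 and 686 CPM in control (-0.37, SE 0.06, edgeR adjusted p = 0.00873); with the GC and length offset it was 0.056 (edgeR adjusted p = 0.671). Ddx25, a testis helicase of mRNA export and translation, was at 0 counts in both knockdown-labelled libraries, against 32 and 25 counts in control. The control level would have given 1.56 molecule equivalents there, so no fold is given. Of the 16 calls, those of Ddx17, Ddx21 and Ddx3x (lower) and Dhx16 (higher) held under all 15 alternatives. Fewer members were called when a library of labelled Ccnb1 or of control was left out, and more when a library of labelled knockdown was. The number called over all genes moved the same way. In a fit of these 2 groups alone 11 members (4 higher and 7 lower) were called, against 13.2% of all genes (5.56% higher and 7.66% lower).

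**Figure D2:**
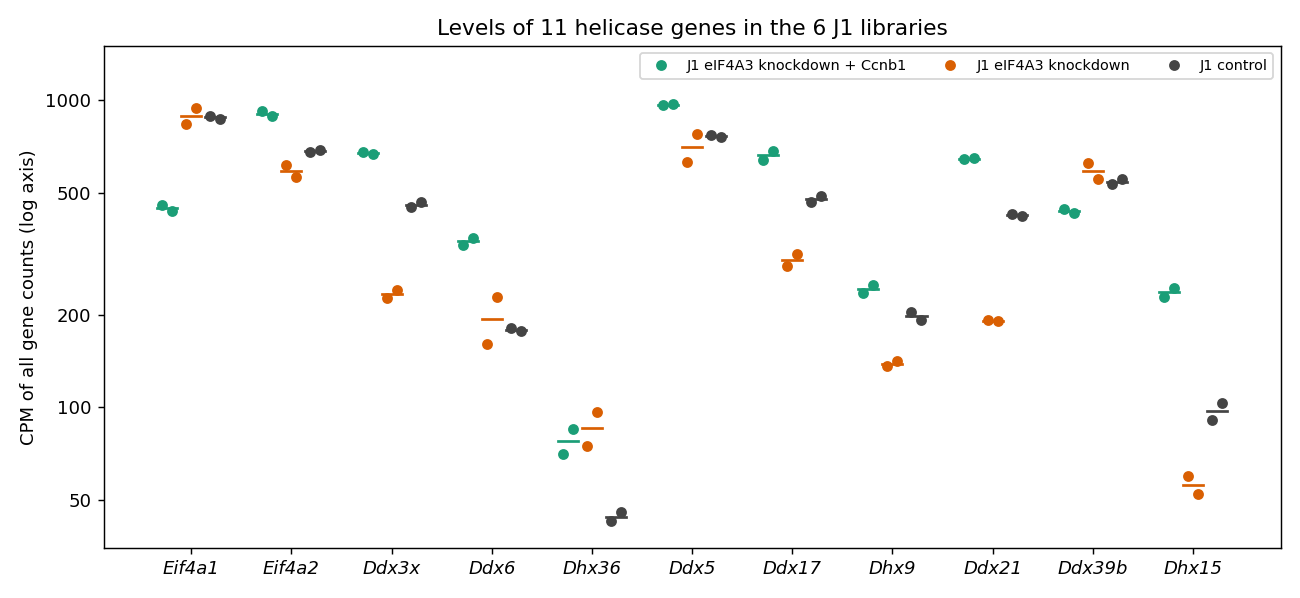
CPM of all gene counts (log axis) of 11 helicase genes in labelled Ccnb1 (green), labelled knockdown (orange) and control (grey); points are libraries and bars the means of 2. Ddx3x, Ddx17, Ddx21, Dhx9 and Dhx15 lie lowest in labelled knockdown and highest in labelled Ccnb1, while Eif4a1 is lowest in labelled Ccnb1 at 456 and 435 CPM.

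Between labelled Ccnb1 and labelled knockdown, 14 members were higher and 13 lower of 53 tested, or 50.9%. Over all genes 38.8% were called, 22.8% higher and 16.0% lower. The median log2 fold change was 0.060 over the members and 0.14 over all genes. The largest increase among members above 5 CPM was that of Dhx15, at 229 and 245 CPM in Ccnb1-labelled libraries, against 60.03 and 52.3 CPM in knockdown-labelled libraries (2.16, SE 0.13, edgeR adjusted p = 2.93e-04). Ddx21 stood at 641 and 646 CPM in Ccnb1-labelled libraries, against 193 and 191 CPM in knockdown-labelled libraries (1.83, SE 0.06, edgeR adjusted p = 1.11e-04). Ddx3x stood at 677 and 668 CPM in Ccnb1-labelled libraries, against 227 and 241 CPM in knockdown-labelled libraries (1.61, SE 0.07, edgeR adjusted p = 1.42e-04). In all 3 genes the lower of the labelled Ccnb1 libraries was more than 2 times the higher of the knockdown-labelled libraries. Ddx17 stood at 636 and 685 CPM in Ccnb1-labelled libraries, against 288 and 315 CPM in knockdown-labelled libraries (1.21, SE 0.08, edgeR adjusted p = 4.04e-04). Ddx19b, one of a pair of paralogues that release export factors at the nuclear pore, stood at 165 and 165 CPM in Ccnb1-labelled libraries, against 72.1 and 67.3 CPM in knockdown-labelled libraries (1.32, SE 0.11, edgeR adjusted p = 7.35e-04), but with the GC and length offset at 0.37 (edgeR adjusted p = 0.0565). The other of the pair, Ddx19a, stood at 62.2 and 57.7 CPM in Ccnb1-labelled libraries, against 42.5 and 42.5 CPM in knockdown-labelled libraries, and its call (0.57, edgeR adjusted p = 0.0433) held under only 4 of 15 alternatives. Of the stretches of 100 bases of Ddx19a, 23.2% are also in Ddx19b, so their reads may be left uncounted or counted for either gene. Ddx58 stood at 43.3 and 49.4 CPM in Ccnb1-labelled libraries, against 27.5 and 17.8 CPM in knockdown-labelled libraries (1.11, SE 0.24, edgeR adjusted p = 0.0176). That call of Ddx58 held under 8 of 15 alternatives and was lost with the offset, at 0.26 (edgeR adjusted p = 0.489). Dhx9, Ddx6, Ddx10, Dhx32, Eif4a2, Ddx5 and Ddx25 were also called higher. With the offset the calls of Dhx9 (-0.13), Ddx6 (-0.20), Ddx10 (-0.090) and Eif4a2 (-0.080) were lost, and Ddx5 turned to a decrease (-0.49, edgeR adjusted p = 0.00824). The same offset moved the median of all genes in this comparison from 0.14 to -0.36. The part of that common shift in the lost and turned calls was not tested.

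Ddx41, Ddx56, Ddx55, Dhx16, Ddx1 and Eif4a1 fell most in labelled Ccnb1 relative to labelled knockdown. Ddx41 stood at 41.2 and 45.5 CPM in Ccnb1-labelled libraries, against 179 and 174 CPM in knockdown-labelled libraries (-1.95, SE 0.13, edgeR adjusted p = 4.51e-04). Ddx56, a nucleolar helicase of large subunit assembly, stood at 42.1 and 34.3 CPM in Ccnb1-labelled libraries, against 146 and 122 CPM in knockdown-labelled libraries (-1.73, SE 0.17, edgeR adjusted p = 0.00121). Ddx55, known in yeast (as Spb4) for large subunit assembly, stood at 36.4 and 42.1 CPM in Ccnb1-labelled libraries, against 99.1 and 150 CPM in knockdown-labelled libraries (-1.58, SE 0.27, edgeR adjusted p = 0.00777). Here the 2 libraries labelled knockdown lay further apart than the 2 labelled Ccnb1. Dhx16 stood at 190 and 188 CPM in Ccnb1-labelled libraries, against 441 and 454 CPM in knockdown-labelled libraries (-1.16, SE 0.07, edgeR adjusted p = 2.77e-04). Ddx1, a subunit of the tRNA ligase complex, stood at 67.1 and 68.6 CPM in Ccnb1-labelled libraries, against 147 and 140 CPM in knockdown-labelled libraries (-1.003, SE 0.13, edgeR adjusted p = 0.00342). Eif4a1 stood at 456 and 435 CPM in Ccnb1-labelled libraries, against 836 and 943 CPM in knockdown-labelled libraries (-0.92, SE 0.08, edgeR adjusted p = 8.11e-04). Ddx50, Ddx49, Ddx47, Ddx52, Ddx39b, Dhx8 and Ddx23 were also called lower, with log2 fold changes from -0.92 to -0.34. For Ddx49, a nucleolar helicase, 29.8% of the exon bases overlap Homer3 on the opposite strand, which itself held 193 and 169 counts in labelled Ccnb1, against 549 and 195 counts in labelled knockdown. The strand handling of the counting is not given in the sources used here, so reads from the overlapping bases cannot be told apart. For Ddx41, 17.4% of the exon bases overlap Gm46416 on the opposite strand, which has no row in the count tables.

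By role, the ribosome biogenesis members split into 2 called higher (Ddx21 and Ddx10) and 6 called lower of 16, and the spliceosome members into 1 higher (Dhx15) and 5 lower of 11. In translation and mRNA turnover 3 of 6 were higher (Ddx3x, Ddx6 and Eif4a2) and 1 lower (Eif4a1). In transcription and microRNA processing 3 of 4 were higher (Ddx17, Dhx9 and Ddx5) and 1 lower (Ddx1), and in mRNA export 3 of 4 were higher (Ddx19a, Ddx19b and Ddx25). Of those export calls, Ddx19a held under 4 of 15 alternatives, Ddx19b was lost with the offset, and Ddx25 rests on 0 counts in labelled knockdown. Dhx32 and Ddx58 were the members called in the remaining roles. Over all genes 38.8% were called. Of the 27 calls, those of Dhx15, Ddx21, Ddx3x and Ddx17 (higher) and of Ddx41, Ddx56, Dhx16 and Eif4a1 (lower) held under all 15 alternatives. The sizes of the increases did not hold: with the offset Dhx15 was at 1.28, Ddx21 at 0.89, Ddx17 at 0.51 and Ddx3x at 0.42. The median of all genes stood at -0.36 in that fit. Fewer members were called when a library of labelled Ccnb1 or of control was left out, and more when a library of labelled knockdown was, as over all genes. In a fit of these 2 groups alone 20 members (12 higher and 8 lower) were called, against 28.8% of all genes (16.9% higher and 11.9% lower).

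**Figure D3:**
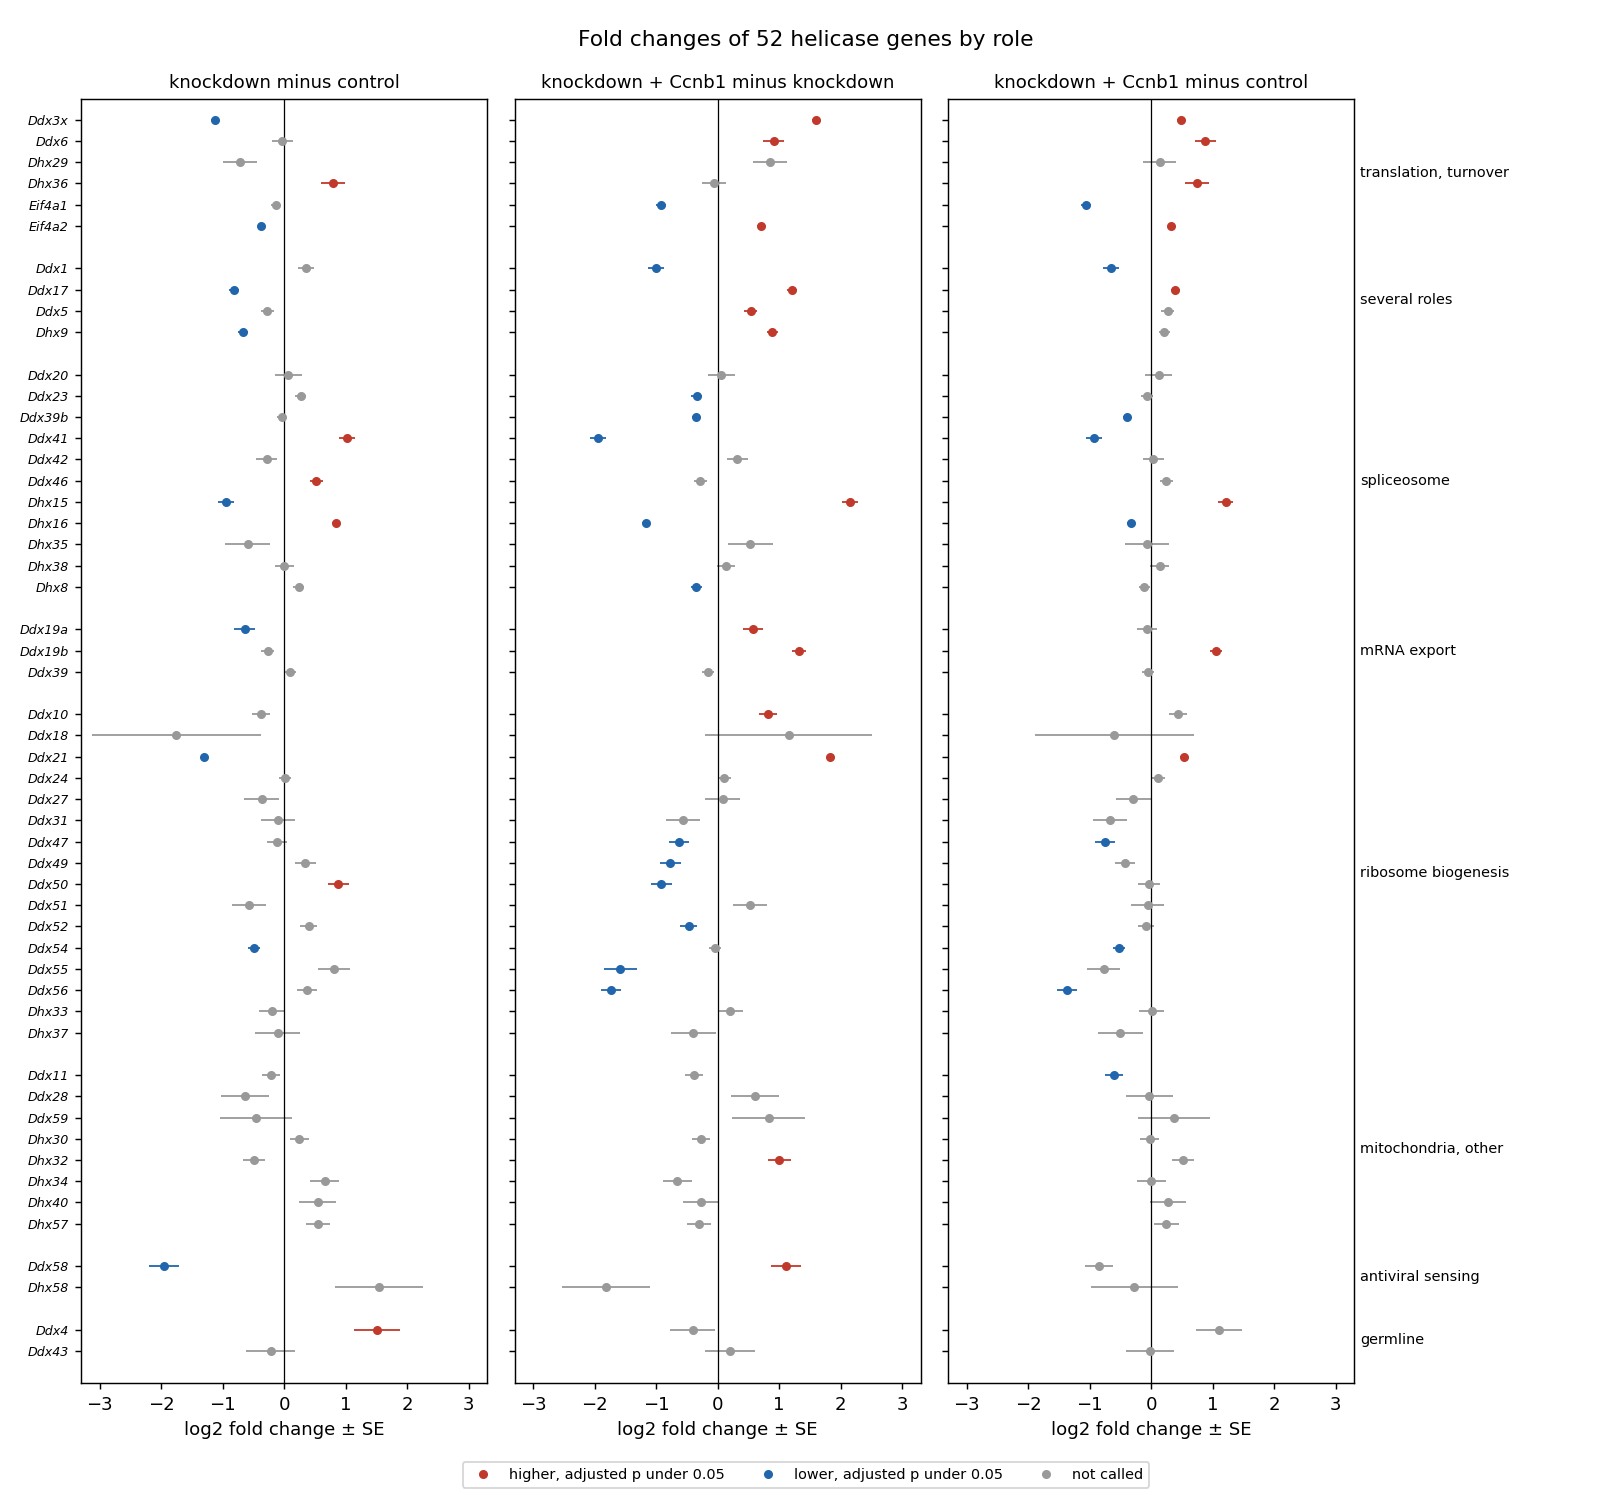
Log2 fold change ± SE (points and bars) of 52 tested members, grouped by role, in the 3 comparisons; red is called higher, blue called lower and grey not called, at an edgeR adjusted p under 0.05. Ddx25, with no count in labelled knockdown, is not drawn; in the middle panel 5 spliceosome members lie to the left in blue, whereas Dhx15 stands at 2.16.

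Between labelled Ccnb1 and control, 8 members were higher and 9 lower of 53 tested, or 32.1%. Over all genes 19.8% were called, 9.35% higher and 10.5% lower. The median log2 fold change was -0.031 over the members and 0.071 over all genes. The eIF4A paralogues moved in opposite directions. Eif4a1 stood at 456 and 435 CPM in Ccnb1-labelled libraries, against 888 and 870 CPM in control (-1.06, SE 0.08, edgeR adjusted p = 0.00121). Eif4a2 stood at 921 and 886 CPM in Ccnb1-labelled libraries, against 680 and 686 CPM in control (0.33, SE 0.06, edgeR adjusted p = 0.0153). Neither pair of groups overlapped. Per length, the ratio of Eif4a1 to Eif4a2 was 0.616 and 0.611 in labelled Ccnb1, 1.69 and 2.09 in labelled knockdown, 1.63 and 1.58 in control, and 0.737 and 1.05 in CCE. By these counts Eif4a1 was thus the more abundant of the pair in labelled knockdown and control, and Eif4a2 in labelled Ccnb1. Of the stretches of 100 bases of Eif4a1, 60.8% are also in Eif4a-ps4, and 0.0% of those of Eif4a2 are in its copy Gm18949. Reads of Eif4a1 may thus be left uncounted more often, so which of the pair is more abundant is uncertain. The call of Eif4a1 held under all 15 alternatives, at log2 fold changes from -1.18 to -0.98, whereas Eif4a2 was at -0.024 under the GC and length offset.

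Dhx15 stood at 229 and 245 CPM in Ccnb1-labelled libraries, against 90.9 and 103 CPM in control (1.21, SE 0.12, edgeR adjusted p = 0.00285). Ddx19b stood at 165 and 165 CPM in Ccnb1-labelled libraries, against 77.3 and 73.6 CPM in control (1.05, SE 0.10, edgeR adjusted p = 0.00276). Ddx6, the decapping and translational repression helicase of P-bodies, stood at 339 and 355 CPM in Ccnb1-labelled libraries, against 181 and 177 CPM in control (0.88, SE 0.17, edgeR adjusted p = 0.0198). In labelled knockdown its libraries stood at 161 and 229 CPM, on either side of the control values. Dhx36 stood at 70.5 and 84.9 CPM in Ccnb1-labelled libraries, against 42.7 and 45.6 CPM in control (0.74, SE 0.19, edgeR adjusted p = 0.0486). Smaller increases were those of Ddx21 (0.53, edgeR adjusted p = 0.00317), Ddx3x (0.48, edgeR adjusted p = 0.00642) and Ddx17 (0.40, edgeR adjusted p = 0.0222). These 3 genes and Dhx15 and Eif4a2 had CPM values in labelled knockdown below control and in labelled Ccnb1 above it. With the GC and length offset, Dhx15 alone of all these members was still called higher than control. Ddx3x was then called lower (-0.31, edgeR adjusted p = 0.0301). The offset also moved the median of all genes, to -0.12.

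Ddx56 was lower, at 42.1 and 34.3 CPM in Ccnb1-labelled libraries, against 89.7 and 96.8 CPM in control (-1.36, SE 0.16, edgeR adjusted p = 0.00486). Ddx41 stood at 41.2 and 45.5 CPM in Ccnb1-labelled libraries, against 72.3 and 83.9 CPM in control (-0.93, SE 0.13, edgeR adjusted p = 0.00809). Ddx41 in labelled knockdown, at 179 and 174 CPM, was above both of the other J1 groups. Ddx47, a nucleolar helicase of rRNA processing, stood at 74.6 and 79.1 CPM in Ccnb1-labelled libraries, against 126 and 119 CPM in control (-0.75, SE 0.16, edgeR adjusted p = 0.0259). Ddx1 stood at 67.1 and 68.6 CPM in Ccnb1-labelled libraries, against 91.6 and 110 CPM in control (-0.65, SE 0.13, edgeR adjusted p = 0.0231). Ddx11, a DNA helicase of sister chromatid cohesion, stood at 54.5 and 60.9 CPM in Ccnb1-labelled libraries, against 82.4 and 84.5 CPM in control (-0.61, SE 0.14, edgeR adjusted p = 0.0372). None of these groups overlapped. Ddx39b stood at 442 and 430 CPM in Ccnb1-labelled libraries, against 532 and 555 CPM in control (-0.39, SE 0.07, edgeR adjusted p = 0.0171), and Ddx54 and Dhx16 were also called lower. By role, 4 of 6 members in translation and mRNA turnover were higher (Ddx3x, Ddx6, Dhx36 and Eif4a2) and 1 lower, and 3 of 16 in ribosome biogenesis were lower (Ddx47, Ddx54 and Ddx56) and 1 higher. Of 11 spliceosome members 3 were lower and 1 higher, against 19.8% of all genes called. Leaving out a library of labelled Ccnb1 or of control ended every member call but that of Eif4a1, and most calls over all genes as well. Leaving out a library of labelled knockdown raised the number called, among members and over all genes alike. In a fit of these 2 groups alone 31 members were called (14 higher and 17 lower), against 62.1% of all genes (31.4% higher and 30.7% lower).

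In none of the 3 comparisons were 21 of the 53 tested members called, the lowest of their edgeR adjusted p values being 0.0572, for Dhx29 in labelled Ccnb1 against labelled knockdown. Their mean levels in control ran from 3.21 to 233 CPM, and their median SE in labelled knockdown against control was 0.28. A call took a difference of several SEs, so sizeable differences in these members may have gone undetected at this depth and spread. The most abundant of them was Ddx24, a nucleolar helicase, at 251 and 283 CPM in Ccnb1-labelled libraries, 262 and 262 CPM in knockdown-labelled libraries and 218 and 249 CPM in control. Ddx39, the paralogue of Ddx39b in mRNA export, stood at 189 and 177 CPM in Ccnb1-labelled libraries, 216 and 214 CPM in knockdown-labelled libraries and 193 and 168 CPM in control. Dhx29, which helps the small ribosomal subunit through structured leaders, stood at 57.1 and 57.9 CPM in Ccnb1-labelled libraries, 42.7 and 24.5 CPM in knockdown-labelled libraries and 49.8 and 49.3 CPM in control. For Dhx29 the libraries labelled knockdown were below all others and far apart from each other, whereas for Ddx39 all 6 values lay close together. Ddx42, Dhx38 and Ddx20 of the splicing and snRNP members, Dhx30 and Ddx28 of the mitochondrial ones and the germline helicase Ddx43 were also among the 21.

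Transcript GC content and length moved with the calls in both comparisons of labelled Ccnb1. Between labelled knockdown and control the members called higher and lower had median GC contents of 44.4% and 46.5%, and over all genes the order was the other way, at 52.4% and 50.1%. Between labelled Ccnb1 and labelled knockdown, the 14 members called higher had a median GC content of 45.3% and a median transcript length of 4.22 kb, against 52.2% and 2.80 kb for the 13 called lower. Over all genes the medians were 48.1% for genes called higher and 54.3% for genes called lower. Between labelled Ccnb1 and control, the 8 members called higher had a median of 43.4% and the 9 called lower one of 54.7%. With an offset for GC and length in the fit, 13 members were higher and 8 lower in labelled knockdown relative to control (27.8% of all genes called, 15.8% higher and 12.0% lower). In the same fit 6 members were higher and 22 lower in labelled Ccnb1 relative to labelled knockdown (37.8% of all genes called, 12.9% higher and 24.8% lower), and 1 was higher and 12 lower relative to control (14.8% of all genes called, 3.61% higher and 11.2% lower). Of the members called higher relative to control, Dhx15 was still called with the offset (0.75, edgeR adjusted p = 0.0201), and Ddx19b was not (0.26, edgeR adjusted p = 0.210). Ddx21 then stood at -0.10, Ddx17 at -0.057 and Ddx6 at 0.034 relative to control, and Ddx3x at -0.31 (edgeR adjusted p = 0.0301). The same offset shifted the median of all genes by itself, to -0.36 relative to labelled knockdown and to -0.12 relative to control. Eif4a1 stood at -1.41 and -1.18 in these 2 comparisons with the offset. The part of base composition in the other differences was not tested.

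**Figure D4:**
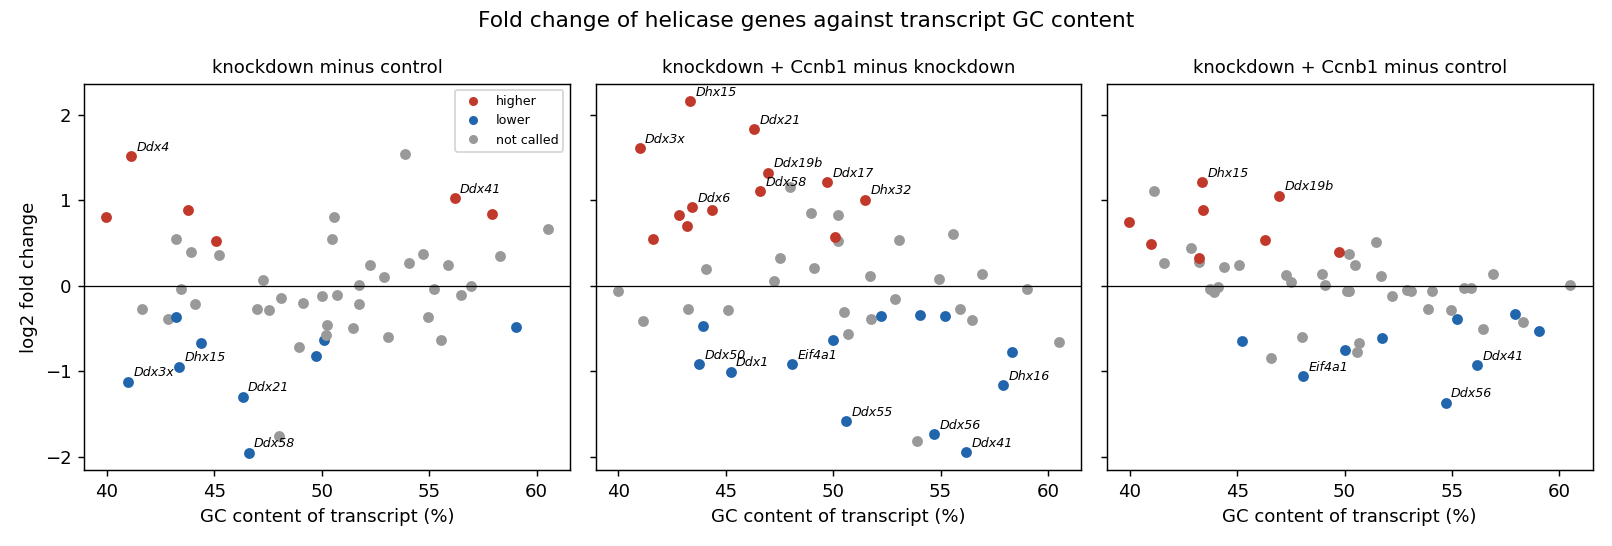
Log2 fold change of 52 tested members against the GC content of their transcript (%) in the 3 comparisons; red is called higher, blue called lower and grey not called, and called members beyond 0.9 are named. In the middle and right panels the red points lie mostly at low GC content, with medians of 45.3% and 43.4%, and the blue ones reach further right, with medians of 52.2% and 54.7%.

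The near-identical copies held a large part of the reads of 2 members. Gm12183 held 7275 and 7888 counts in labelled Ccnb1, beside 5650 and 6432 of Ddx5 itself, so that the copy took 56.3% and 55.1% of both. Its share was 28.5% and 20.5% in labelled knockdown, 29.0% and 27.7% in control, and 0.345% and 0.193% in CCE. Ddx5 alone stood at 962 and 972 CPM in Ccnb1-labelled libraries, 628 and 777 CPM in knockdown-labelled libraries and 768 and 757 CPM in control. Its difference between labelled Ccnb1 and control was 0.27 (SE 0.11, edgeR adjusted p = 0.142), and -0.33 (edgeR adjusted p = 0.0551) with the GC and length offset. With the copy's counts added, an alternative chosen after seeing the data, it was 0.96 (SE 0.07, edgeR adjusted p = 0.00102). The sum was lower in labelled knockdown than in control by the same test (-0.35, SE 0.07, edgeR adjusted p = 0.0140), where Ddx5 alone missed the threshold at -0.27 (edgeR adjusted p = 0.114), or 0.16 with the offset.

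Ddx18, a helicase of early ribosome assembly, is named here because of its copy, after its values were seen. Gm16433 held 1160 and 1323 counts in labelled Ccnb1, 458 and 203 in labelled knockdown and 825 and 1096 in control, and Ddx18 itself 141 and 186, 0 and 90, and 237 and 281. Most reads of the pair in J1 were thus assigned to the copy. In CCE the reverse held, with 19 and 25 counts of Gm16433 and 3581 and 4051 of Ddx18. Ddx18 alone passed the threshold in none of the 3 comparisons, with SEs from 1.30 to 1.37. The sum with its copy fell by 1.07 in labelled knockdown relative to control (SE 0.13, edgeR adjusted p = 0.00435), and was 1.35 higher in labelled Ccnb1 than in labelled knockdown (SE 0.13, edgeR adjusted p = 0.00138). Gm13410, a copy of Ddx6, held 306 and 297 counts in labelled Ccnb1, 70 and 22 in labelled knockdown and 14 and 16 in control. With it, Ddx6 was 1.05 higher in labelled Ccnb1 than in control (SE 0.14, edgeR adjusted p = 0.00672).

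**Figure D5:**
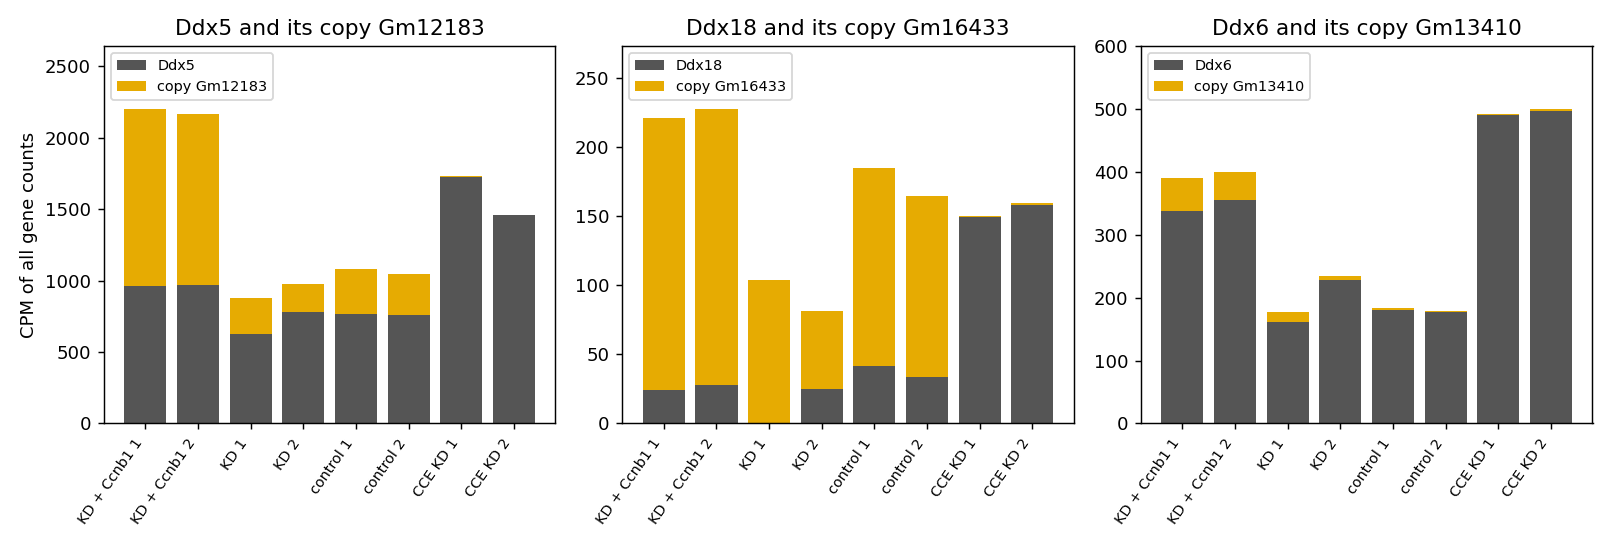
CPM of all gene counts of Ddx5, Ddx18 and Ddx6 (grey) with their near-identical copies stacked on top (yellow), 1 bar per library; KD is labelled knockdown. The yellow part is 56.3% and 55.1% of the Ddx5 bars in labelled Ccnb1, and it is the whole Ddx18 bar in labelled knockdown replicate 1, where Ddx18 had 0 counts.

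Genes that work with the helicases were read from lists chosen with earlier results of these data known, and their counts stand beside shares over all genes of 28.9% in labelled knockdown against control, 38.8% in labelled Ccnb1 against labelled knockdown and 19.8% in labelled Ccnb1 against control. Of 7 partners and regulators of eIF4A, 1 was higher and 4 lower in labelled knockdown relative to control, and 5 were higher and 1 lower in labelled Ccnb1 relative to labelled knockdown. Eif4b, which stimulates the unwinding by eIF4A, stood at -0.69 (edgeR adjusted p = 0.00205) and 0.92 (edgeR adjusted p = 5.27e-04) in these comparisons. Eif4g3, a scaffold that binds eIF4A, went the other way, at 0.93 (edgeR adjusted p = 0.00384) and -1.35 (edgeR adjusted p = 8.15e-04). Relative to control, labelled Ccnb1 had 2 of the 7 higher, Eif4g1 (0.42, edgeR adjusted p = 0.00801) and Eif4g2 (0.45, edgeR adjusted p = 0.0321), and the other 5 were not called. Of 9 partners of Ddx6 in decapping and repression, 2 were higher and 3 lower in labelled knockdown relative to control, and 4 were higher in labelled Ccnb1 relative to labelled knockdown, with the other 5 not called. Cnot1, the scaffold of the CCR4-NOT deadenylase that binds DDX6, stood at 316 and 322 CPM in Ccnb1-labelled libraries, 129 and 157 CPM in knockdown-labelled libraries and 94.8 and 93.0 CPM in control. It was higher in labelled Ccnb1 than in control by 1.69 (SE 0.12, edgeR adjusted p = 0.00110). Dcp2, the decapping enzyme, was higher by 0.81 (edgeR adjusted p = 0.00347), and the other 7 were not called in that comparison.

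Of 10 G-patch proteins, several of which activate DHX15, 2 were higher and 1 lower in labelled knockdown relative to control, and 2 were higher and 5 lower in labelled Ccnb1 relative to labelled knockdown. The splicing factor Rbm5 was among both, at 1.11 (edgeR adjusted p = 0.00411) and -1.29 (edgeR adjusted p = 0.00174). Dhx15 itself moved the other way from Rbm5 in both. The 1 called lower in the first comparison and the 2 called higher in the second moved in the direction of Dhx15. Of 8 mRNA export partners of the DDX19 and DDX39 proteins, 1 was higher and 3 lower in labelled Ccnb1 relative to labelled knockdown. Gle1, which activates the DDX19 proteins at the pore, stood at -1.05 there (edgeR adjusted p = 0.00212). Of 15 other RNA helicases tested, 3 were higher and 2 lower in labelled knockdown relative to control, and 3 were higher and 4 lower in labelled Ccnb1 relative to labelled knockdown. Relative to control, 2 of the 15 were higher and 1 lower in labelled Ccnb1, near the share over all genes. Snrnp200, the helicase that unwinds U4 from U6 in the spliceosome, stood at 267 and 265 CPM in Ccnb1-labelled libraries, 154 and 137 CPM in knockdown-labelled libraries and 138 and 115 CPM in control. It was higher in labelled Ccnb1 than in labelled knockdown (0.95, SE 0.12, edgeR adjusted p = 0.00262) and than in control (1.002, SE 0.11, edgeR adjusted p = 0.00423).

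The CCE libraries are described without a test, and their counts were not made like those of J1. Eif4a2 stood at 2017 and 1488 CPM, Ddx5 at 1722 and 1457 CPM and Eif4a1 at 1194 and 1258 CPM. Dhx16 stood at 531 and 522 CPM and Ddx6 at 490 and 497 CPM. With TMM over all 8 libraries, Ddx3x was at 711 and 745 CPM, below Eif4a1 at 1287 and 1353 and above Dhx16 at 572 and 562. Dhx15 stood at 316 and 306 CPM, and Ddx18, whose copy took almost no reads in this line, at 149 and 158 CPM. Ddx4 stood at 46.6 and 46.2 CPM, and Ddx11 at 15.2 and 14.6 CPM. Over all members the share of gene counts was 1.31% and 1.25% in CCE.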

How the data were processed

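Poly-A RNA of 6 J1 and 2 CCE libraries was analysed from whole-number read counts per Ensembl gene, as deposited by the authors. Tools listed in the submitters' processing notes are HTSeq 0.11.2, Bowtie2 2.3.4.3, edgeR 3.26.8 and SAMtools 1.9, and the build is mm9; roles and strand handling are not given in the sources used here. The 5 summary rows, 58.6% to 80.0% of each total, name no gene and were left out. A symbol was found for 32620 gene IDs, and transcript length, GC content and sequences from GENCODE M21, so no coordinates are given.

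Tests were quasi-likelihood F tests (edgeR 4.0.16 in R 4.3.3) on the deposited counts, two-sided, with TMM scaling, filterByExpr and no replicate block. SEs are the size of the log2 fold change divided by the root of F. Alternatives used DESeq2 1.42.0, limma 3.58.1 with voom, mgcv 1.9.3 for the GC and length offset, and BLAST 2.17.0 for copies at 90% identity, added where at least 1000 bases aligned. Scripts were tested on simulated data with the same spread in all groups, so the unequal spread of these groups was not simulated. Values per library are given for 11 set members and, per comparison, for up to 6 called members at either end with a mean of at least 5 CPM. Of each partner list up to 3 genes with the smallest adjusted p could be named. Members, lists and this rule were chosen with earlier results of these data known. The labels do not say whether replicates were separate cultures. The p-values thus measure only the spread between these libraries, pooled over the J1 groups, and it may be technical. Molecule equivalents are counts over the spread between libraries relative to Poisson noise. A count of 0 allows up to 3 counts, 0.360 to 0.834 CPM in J1 libraries, counting error only. The result for 1 listed gene is not reported here.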

Additional observations from a re-analysis of the deposited data

How the results depend on the processing

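Each member call was recomputed under 15 alternatives, as were the numbers of members and of all genes called in each comparison. The cause of a change was not tested unless stated. Calls of the markers, partners and other RNA helicases are given from the main fit only, so how far they depend on these settings is not shown. DESeq2's size factors ended the call of Ddx19a in both comparisons with labelled knockdown, and no other member call there. Without TMM the median of all genes in labelled knockdown relative to control was 0.065, against -0.085 with it, and genes called higher made up 49.3% of the calls, against 38.0%. Under the GC and length offset these were 0.18 and 56.9%. That share was 34.2% with the offset between labelled Ccnb1 and labelled knockdown, against 58.7%, and 24.4% between labelled Ccnb1 and control, against 47.2%.

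Labelled knockdown against control, with 4184 genes called in all, gave 1760 with only the 2 groups in the fit and 2631 with a replicate block. Members called higher were 13 without TMM, 14 by DESeq2 and 13 with the offset. Leaving out 1 library gave 701 to 10225 genes and 4 to 41 members, 1 to 17 higher and 3 to 24 lower. Labelled Ccnb1 against labelled knockdown, with 5616 genes, gave 8 members lower with only the 2 groups, and 6 higher and 22 lower with the offset. Leaving out 1 library gave 1674 to 11078 genes and 11 to 42 members, 7 to 21 higher and 4 to 21 lower. Labelled Ccnb1 against control, with 2865 genes, gave 4656 by DESeq2, 8608 by voom with group weights and 8658 with only the 2 groups. Members called were 30 by voom (14 higher, 16 lower) and 31 with only the 2 groups (14 and 17), and 1 was higher with the offset. Leaving out 1 library gave 254 to 8806 genes and 1 to 33 members, 0 to 17 higher and 1 to 16 lower. Where 1 library of a group is left, it is given the spread of the other groups, and leaving out one labelled knockdown library, the group with the widest spread, raised the calls.

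Directions turned with the offset for 12 members in labelled knockdown relative to control, 13 in labelled Ccnb1 relative to labelled knockdown and 16 in labelled Ccnb1 relative to control, of which 1, 5 and 5 were called; those described by their values follow. In labelled knockdown relative to control, Eif4a1 became 0.23 (edgeR adjusted p = 0.0421), Eif4a2 0.056, Ddx5 0.16 and Ddx6 0.23. In labelled Ccnb1 relative to labelled knockdown, Ddx5 became -0.49, Ddx6 -0.20, Dhx9 -0.13, Ddx10 -0.090 and Eif4a2 -0.080. In labelled Ccnb1 relative to control, Ddx5 became -0.33, Ddx17 -0.057, Ddx21 -0.10, Ddx3x -0.31, Ddx46 -0.53, Dhx36 -0.21, Dhx9 -0.44 and Eif4a2 -0.024. The medians of all genes moved with the offset too, to 0.18, -0.36 and -0.12 in the same order of comparisons. The part of that common shift in these turns was not tested. Without labelled knockdown replicate 1, Ddx6 became 0.18 in labelled knockdown relative to control (edgeR adjusted p = 0.0418), but -0.34 when replicate 2 was left out (edgeR adjusted p = 1.54e-04), so this value rests on single libraries.

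The replicate numbers are shared between groups only in the labels. Deviations of libraries with the same number correlated at 0.011, -0.0066 and -0.0178, so the numbers were not read as a pairing, and the replicate block left 14, 23 and 13 members called in the 3 comparisons. Depth limits the members under 10 molecule equivalents in labelled knockdown. TMM over all 8 libraries moved 8 CCE levels beyond their spread.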
